A study of Homo sapiens with 9 samples.

Results

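The genes described here are 50 DNA repair genes in Kasumi-1 cells. This line was derived from a human acute myeloid leukaemia with t(8;21), the translocation that joins RUNX1 to RUNX1T1 and yields the fusion protein AML1-ETO (AE). They were taken by symbol from the 59648 genes counted in every library, and they hold 10 homologous recombination genes, 10 Fanconi anaemia genes, 8 genes of break sensing and the checkpoint, 5 of end joining, 3 of mismatch repair, 9 of base excision and single-strand break repair and 5 of nucleotide excision repair and translesion synthesis. RNA was sequenced in 9 libraries. Of these, 3 had shRNA against AE (replicates 1 to 3) and 3 had shRNA against LYL1, a blood transcription factor (labelled 538, 540 and 542). The other 3 had a control shRNA (replicates 1 to 3). Cells of all 3 groups were transduced with lentivirus for 48 h, kept in 1 µg/mL puromycin for 48 h more and harvested on day 4, so virus and puromycin are common to knockdown and control. Per the labels it is unclear whether AE replicates 1 to 3 differ in shRNA or repeat the same shRNA. The titles do not say whether the LYL1 numbers are different shRNAs, and it is unclear whether libraries came from separate cultures. The p-values thus measure the spread between these samples, which may be technical. For each gene this spread was estimated over all 3 groups together, also where the control group was not part of the comparison. It was widest between the AE and narrowest between the control libraries.

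Cells mend a double-strand break either by homologous recombination, which copies the sister chromatid and works in S and G2 phase, or by end joining, which rejoins the ends at any time of the cycle. The Fanconi anaemia proteins open crosslinks between the strands and hand the break to recombination. ATM and ATR are the kinases that sense breaks and stalled forks. Mismatch, base excision and nucleotide excision repair remove wrong pairs, damaged bases and bulky lesions from 1 strand. In t(8;21) leukaemia the fusion has been described as lowering the expression of some repair genes, base excision genes among them, and the present comparisons show the levels of such genes 4 days after the fusion was lowered.

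Values are CPM, counts scaled by the TMM-adjusted library total, and a gene is called at an edgeR adjusted p below 0.05 over the 14741 genes tested. The libraries held 20103275 to 28039518 counts. Counts varied by 31.4% between the AE, 20.9% between the LYL1 and 7.55% between the control libraries (edgeR common biological coefficient of variation), and AE replicate 3 stood farthest from the controls on the first principal component. RUNX1T1, the ETO part of the fusion, was at 114, 136 and 87.6 CPM in AE knockdown libraries, against 215, 223 and 211 CPM in control libraries (log2 fold change -0.94, SE 0.18, edgeR adjusted p = 0.00778). LYL1 was at 80.3, 98.3 and 43.9 CPM in LYL1 knockdown libraries, against 172, 172 and 143 CPM in control libraries (log2 fold change -1.13, SE 0.26, adjusted p = 0.526). The myeloid blast markers KIT and MPO were at 434 CPM or more and 11400 CPM or more in every library, while CD34 spread over 1.14 to 53.2 CPM. The myeloid marker CD33 and the leukocyte marker PTPRC rose with AE knockdown (4.02-fold and 2.56-fold, adjusted p = 0.00103 and 0.019), and CD33 was 2.51-fold higher with LYL1 knockdown, not called (adjusted p = 0.142). The part of this marker shift in the repair values was not tested. Of 12 markers of T, B, epithelial and erythroid cells, MS4A1, KRT18, KRT19 and HBA1 were at 0 in every library, and the highest value of the others was 16.7 CPM (CD79A in AE replicate 3).

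All 50 repair genes were expressed above the low-count filter, and the smallest count of any of them in any library was 17 (MUTYH). Divided by the length of their exons in GENCODE 29 (GRCh38), which need not be the authors' annotation, the control means were highest for the Ku subunit XRCC6 (275 CPM per kb), the abasic-site nuclease APEX1 (172 CPM per kb) and the uracil glycosylase UNG (72.6 CPM per kb). They were lowest for the oxidised-guanine glycosylase OGG1 (0.176 CPM per kb), RAD50 (0.215 CPM per kb) and the adenine glycosylase MUTYH (0.348 CPM per kb). The coefficient of variation of the 50 genes over 3 libraries had a median of 19.7% in AE knockdown, 12.5% in LYL1 knockdown and 6.77% in control libraries, against 22.6%, 16.3% and 8.56% over all genes tested.

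AE knockdown changed few of the repair genes and moved them in no common direction. Of the 50, FANCF, ATM, RAD50 and OGG1 rose and MSH6 and POLH fell. The 6 called are 12.0% of the repair genes, where 21.8% of all genes tested were called. The 4 that rose are set against 11.4% of all genes called higher and the 2 that fell against 10.4% called lower. In these bulk libraries, less RNA per cell and fewer cells expressing a gene cannot be told apart. The median log2 fold change of the 50 genes was -0.04, beside 0.05 over all genes, and it was 0.01 with upper-quartile scaling. Their median absolute log2 fold change was 0.25, beside 0.39 over all genes, and 9 of the 50 differed by over 1.5-fold, beside 33.0% of all genes. In 17 of the 50 (34%) the AE values did not overlap the control values, 7 with all AE libraries higher and 10 with all AE libraries lower; over all genes tested it was 45.2%, with 23.1% higher and 22.2% lower. All 6 calls were lost when any 1 of the 3 control libraries was left out (adjusted p up to 0.132), fits in which 7.2%, 6.31% and 6.89% of all genes were called. Without AE replicate 2, 11 of the 50 repair genes were called, 3 higher and 8 lower, in a fit that called 28.4% of all genes. The 11 included UNG, PRKDC, RAD54L, XRCC2, FANCD2 and XRCC6, which were not called with all libraries.

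**Figure D1:**
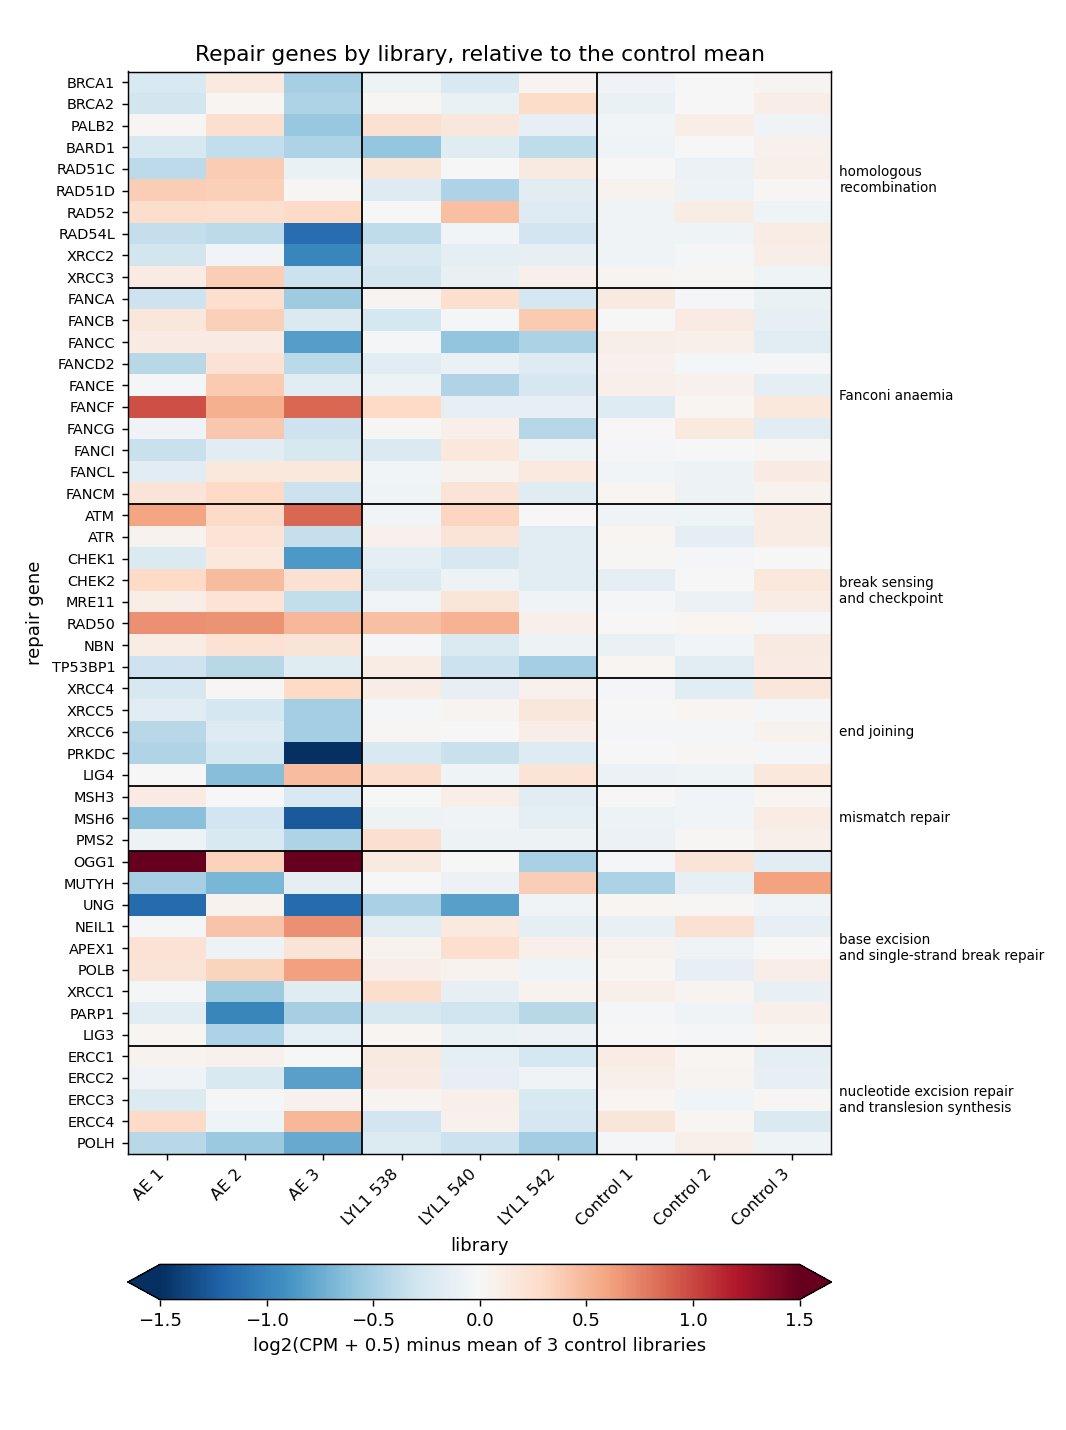
Level of each of the 50 repair genes (rows, by class) in each library (columns), as log2(CPM + 0.5) minus the mean of the 3 control libraries; red is above and blue below the control mean, and the colours end at 1.5 in either direction. FANCF, ATM and RAD50 are red and MSH6 and POLH blue in all 3 AE knockdown libraries, AE replicate 3 holds most of the darkest blue cells, and OGG1 is darkest red in AE replicates 1 and 3.

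**Figure D2:**
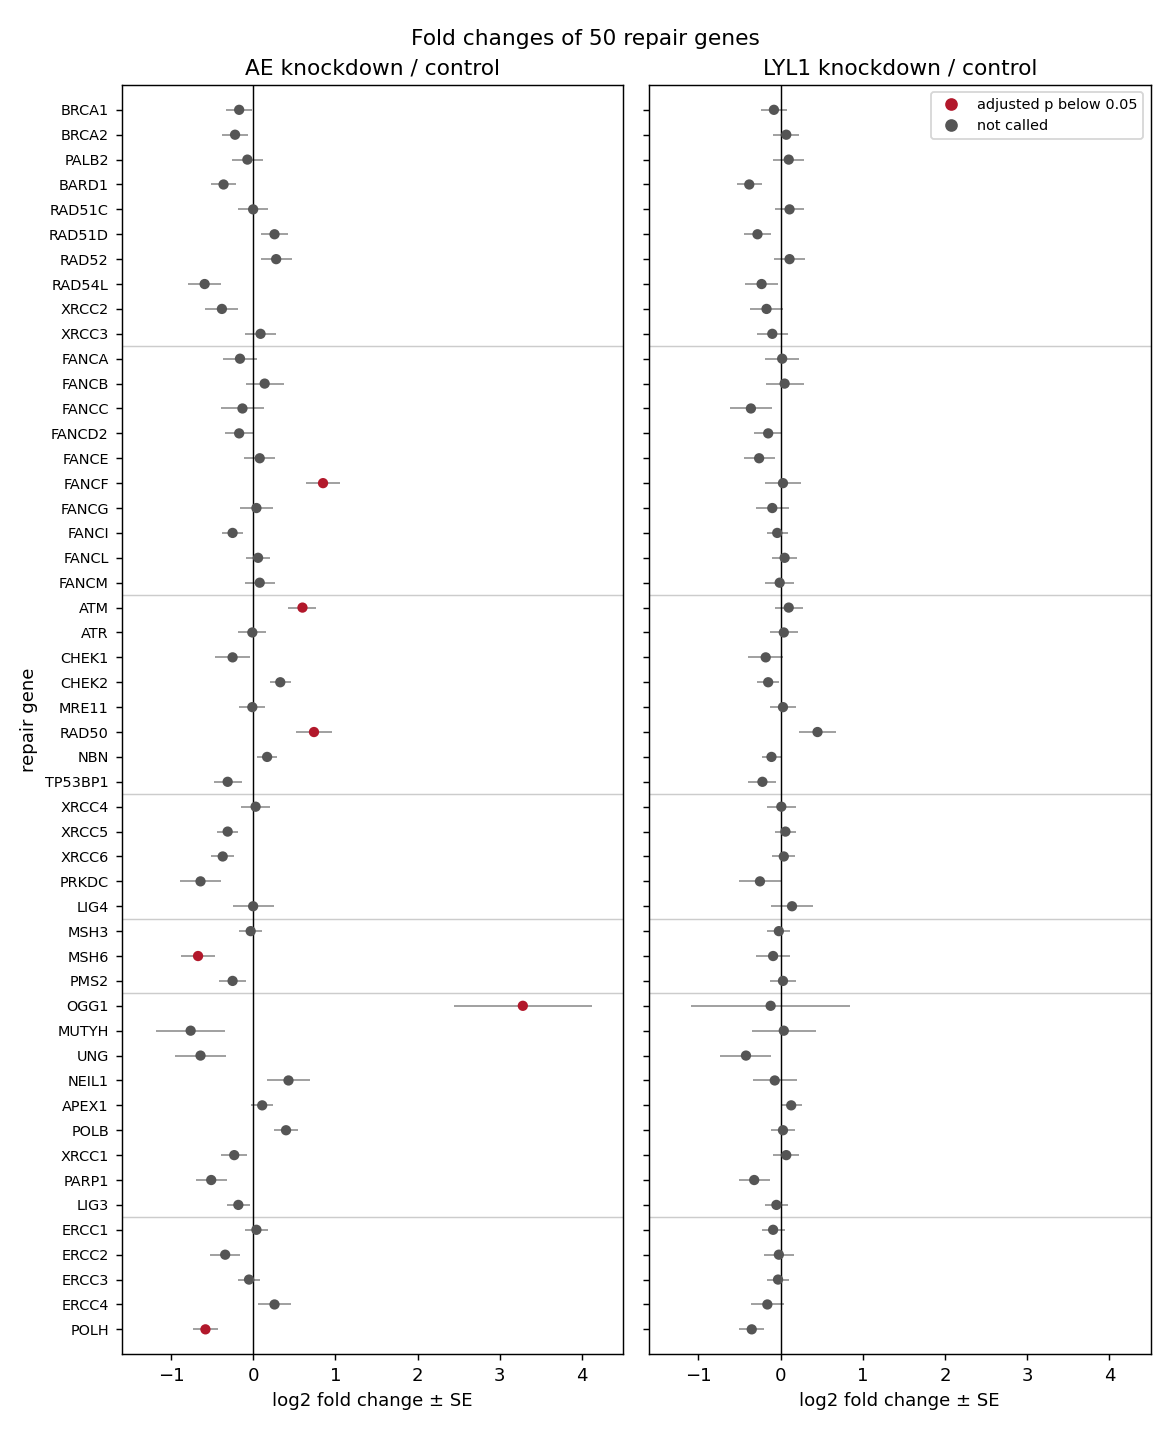
Log2 fold change with its standard error for the 50 repair genes, AE knockdown over control on the left and LYL1 knockdown over control on the right. The 6 red points on the left are the genes with an adjusted p below 0.05, and the right side has none.

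The promoters of FANCF, MSH6, ATM and POLH are shown because these are the genes called with AE knockdown that share under 20% of their exon bases with other genes. UNG, chosen after its values were seen, is shown because its promoter held several matches. Where a gene has several start sites, the promoter with the most matches is given. The letters are the 250 bases before the start site in RefSeq (GRCh38.p14), and capitals mark CCAAT or its reverse complement ATTGG, the core of NF-Y sites, and TTTGGCGC, TTTCCCGC, TTTCGCGC or TTTGCCGC, forms of the E2F site.
FANCF, chr11:22625824-22626073 (minus strand): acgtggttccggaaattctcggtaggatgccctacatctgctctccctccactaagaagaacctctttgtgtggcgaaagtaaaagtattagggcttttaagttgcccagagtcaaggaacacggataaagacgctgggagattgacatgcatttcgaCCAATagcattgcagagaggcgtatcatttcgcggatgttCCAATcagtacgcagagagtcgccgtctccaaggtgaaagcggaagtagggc
MSH6, chr2:47782895-47783144 (plus strand): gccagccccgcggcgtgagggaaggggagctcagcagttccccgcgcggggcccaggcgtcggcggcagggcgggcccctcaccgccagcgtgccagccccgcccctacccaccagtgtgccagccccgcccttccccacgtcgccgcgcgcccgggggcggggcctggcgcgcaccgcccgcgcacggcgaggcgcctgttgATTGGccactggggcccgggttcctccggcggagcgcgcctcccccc
ATM, chr11:108223075-108223324 (plus strand): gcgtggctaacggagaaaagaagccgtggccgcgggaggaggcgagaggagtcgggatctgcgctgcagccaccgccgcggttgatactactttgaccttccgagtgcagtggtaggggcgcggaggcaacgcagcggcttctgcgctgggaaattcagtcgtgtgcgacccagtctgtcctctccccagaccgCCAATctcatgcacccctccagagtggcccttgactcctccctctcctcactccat
POLH, chr6:43575935-43576184 (plus strand): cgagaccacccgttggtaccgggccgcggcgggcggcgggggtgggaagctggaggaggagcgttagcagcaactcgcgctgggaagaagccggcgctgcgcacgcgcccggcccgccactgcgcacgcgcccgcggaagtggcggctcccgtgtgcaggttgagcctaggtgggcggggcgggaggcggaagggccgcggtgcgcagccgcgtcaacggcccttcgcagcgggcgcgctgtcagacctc
UNG, chr12:109097922-109098171 (plus strand): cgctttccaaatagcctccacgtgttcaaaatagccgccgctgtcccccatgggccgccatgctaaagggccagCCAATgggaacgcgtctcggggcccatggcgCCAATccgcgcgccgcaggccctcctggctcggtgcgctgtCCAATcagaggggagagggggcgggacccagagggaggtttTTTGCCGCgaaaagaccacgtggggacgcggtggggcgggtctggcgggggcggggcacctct
FANCF has CCAAT at -92 and -52, MSH6 has ATTGG at -47 and ATM has CCAAT at -56, each counted from the start site to the first base of the match. UNG has CCAAT at -176, -145 and -104 and TTTGCCGC at -63, and the POLH stretch holds none of these letters. MSH6 has TTTCCCGC and ATM a further CCAAT just after the start, outside the stretch shown. Of the 50 genes, 45 had an entry, with 69 promoters of 300 bases. E2F letters were in 14.5% of them, on either strand, against 4.9% of the promoters of tested genes and 3.31% of all promoters. CCAAT was in 47.8%, against 34.6% and 34.6%, and the RUNX letters TGTGGT were in 5.8%, against 10.2% and 13.1%. These shares describe letters, and binding was not measured.

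Homologous recombination genes had no call with AE knockdown by edgeR; 2 of the 10 had an unadjusted p below 0.05, as had 37.2% of all genes, and DESeq2, which called 26.7% of all genes, called RAD54L. Their median log2 fold change was -0.12 with AE knockdown and -0.09 with LYL1 knockdown. RAD54L, a motor protein of strand exchange, was at 30, 29.3 and 17.1 CPM in AE knockdown, 29.5, 37.5 and 31.5 CPM in LYL1 knockdown and 37.2, 36.8 and 41.7 CPM in control libraries. All AE libraries lay below all controls, with AE replicate 3 lowest (log2 fold change -0.59, SE 0.20, adjusted p = 0.059). Without AE replicate 1 or AE replicate 2 it was called (adjusted p = 0.0463 and 0.0409). RAD54L shares 25.1% of its exon bases with LRRC41 on the opposite strand, so its counts are uncertain. LRRC41 was at 68.9, 47.3 and 71.9 CPM in AE knockdown and 66.5, 66.3 and 54.8 CPM in control libraries. BARD1, the partner that stabilises BRCA1, was at 21.7, 19.9 and 18.5 CPM in AE knockdown, 17.0, 22.6 and 19.6 CPM in LYL1 knockdown and 24.6, 25.7 and 27.0 CPM in control libraries. Every knockdown library lay below every control, and neither difference was called (log2 fold change -0.36 with AE knockdown, adjusted p = 0.103, and -0.38 with LYL1 knockdown, adjusted p = 0.97).

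BRCA1, a ubiquitin ligase that directs breaks to recombination, was at 92.5, 120 and 77.0 CPM in AE knockdown libraries, against 105, 109 and 112 CPM in control libraries. BRCA2, which loads the recombinase, was at 34.7, 42.7 and 30.4 CPM in AE knockdown libraries, against 39.1, 41.9 and 45.1 CPM in control libraries. AE replicate 2 lay above the control mean and AE replicate 3 below every control for both, and neither was called (adjusted p = 0.474 and 0.331). PALB2, the link between BRCA1 and BRCA2, had a log2 fold change of -0.07 (SE 0.19). Among the recombinase paralogues, the fold changes with AE knockdown were 0.00 for RAD51C, 0.26 for RAD51D, -0.38 for XRCC2 and 0.09 for XRCC3, with standard errors of 0.16 to 0.20. RAD52, of single-strand annealing, was at 13.9, 13.8 and 14.3 CPM in AE knockdown libraries, all above the 11.1, 12.4 and 11 CPM of control libraries (adjusted p = 0.305). The counts of XRCC3 are uncertain, since 76.7% of its exon bases are shared with KLC1 on the opposite strand, and the strand setting of the counting is not given in the sources used here.

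Of the 10 Fanconi anaemia genes, FANCF rose with AE knockdown and none fell (10.0% called, beside 21.8% of all genes tested). FANCF, an adaptor that holds the core complex together, was at 11.4, 8.27 and 10.5 CPM in AE knockdown, 6.94, 5.07 and 5.08 CPM in LYL1 knockdown and 4.81, 5.69 and 6.29 CPM in control libraries. The AE libraries were all above the other 6, while LYL1 and control libraries overlapped. The log2 fold change was 0.85 with AE knockdown (SE 0.21, adjusted p = 0.0195), a 1.80-fold difference, and 0.03 with LYL1 knockdown (SE 0.22, adjusted p = 1). Without AE replicate 1 the AE call was lost (adjusted p = 0.0509).

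The other Fanconi genes had log2 fold changes between -0.25 and 0.14 with AE knockdown. FANCD2, the clamp subunit that is ubiquitinated at a crosslink, was at 118, 183 and 119 CPM in AE knockdown libraries, against 165, 154 and 154 CPM in control libraries. AE replicate 2 was above every control and replicates 1 and 3 below every control (log2 fold change -0.17, SE 0.17, adjusted p = 0.492; -0.41 and adjusted p = 0.0294 without AE replicate 2). FANCI, its partner in the clamp, was at 109, 123 and 117 CPM in AE knockdown libraries, all below the 135, 139 and 140 CPM of control libraries (adjusted p = 0.194). FANCC, a core subunit, was at 19.0, 19.0 and 9.61 CPM in AE knockdown, 17.0, 11.4 and 12.4 CPM in LYL1 knockdown and 18.5, 18.3 and 15.5 CPM in control libraries. Its groups overlapped in both comparisons, with AE replicate 3 lowest (log2 fold change -0.36 with LYL1 knockdown, SE 0.26). FANCA, FANCB, FANCE, FANCG, FANCL, the ligase of the core, and FANCM, its motor, had log2 fold changes of -0.16, 0.14, 0.08, 0.04, 0.06 and 0.08 with AE knockdown, with overlapping groups in all 6.

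Of the 8 genes of break sensing and the checkpoint, ATM and RAD50 rose with AE knockdown and none fell. The share called was 25.0%, near the 21.8% of all genes tested. ATM, the kinase that breaks activate, was at 77.1, 62.4 and 93.3 CPM in AE knockdown, 49.9, 64.0 and 51.0 CPM in LYL1 knockdown and 49.4, 49.1 and 55.3 CPM in control libraries. All AE libraries were above all controls, and AE replicate 3 was highest, while 1 LYL1 library lay above the lowest AE library. The log2 fold change was 0.60 with AE knockdown (SE 0.17, adjusted p = 0.0288) and 0.10 with LYL1 knockdown (SE 0.17, adjusted p = 1). The AE call was lost without AE replicate 1 (adjusted p = 0.0534) and without AE replicate 3 (log2 fold change 0.43, adjusted p = 0.0696). NPAT, the gene that starts next to ATM on the opposite strand, had a log2 fold change of -0.14 (adjusted p = 0.575).

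RAD50, which with MRE11 and NBN forms the complex that tethers broken ends, was counted at 3.68, 3.66 and 3.17 CPM in AE knockdown, 3.07, 3.25 and 2.24 CPM in LYL1 knockdown and 2.10, 2.15 and 2.06 CPM in control libraries. All 6 knockdown libraries were above all controls. The log2 fold change was 0.74 with AE knockdown (SE 0.22, adjusted p = 0.0378) and 0.45 with LYL1 knockdown (SE 0.23, adjusted p = 1), and AE differed from LYL1 knockdown by 0.29 (adjusted p = 0.361). Without AE replicate 1 or AE replicate 2 the AE call was lost (adjusted p = 0.0776 and 0.0579). The level is uncertain, since 79.7% of the RAD50 exon bases lie in a read-through transcript on the same strand in GENCODE 29, which is listed at 0 in every library. MRE11, the nuclease of the complex, was at 60.9 ± 12.1 CPM in AE knockdown and 61.2 ± 4.46 CPM in control libraries, and NBN, the last subunit, at 143 ± 6.24 and 127 ± 10.9 CPM (SD, n = 3 each). Neither MRE11 nor NBN was called (adjusted p = 0.986 and 0.335).

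CHEK2, the kinase downstream of ATM, was at 52.7, 59.6 and 50.3 CPM in AE knockdown, 37.2, 40.7 and 38.2 CPM in LYL1 knockdown and 38.5, 42.6 and 47.9 CPM in control libraries. The AE libraries were all above the other 6 (log2 fold change 0.33 against control, SE 0.13, adjusted p = 0.0951). CHEK1, the kinase downstream of ATR, was at 86.6, 113 and 55.5 CPM in AE knockdown libraries, against 102, 100 and 101 CPM in control libraries. The controls lay close together and the AE libraries on both sides of them (log2 fold change -0.25, SE 0.21, adjusted p = 0.407). ATR had a log2 fold change of -0.01 (SE 0.17), and TP53BP1, which shields ends from resection, of -0.31 (SE 0.17, adjusted p = 0.224) with all AE libraries below all controls.

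**Figure D3:**
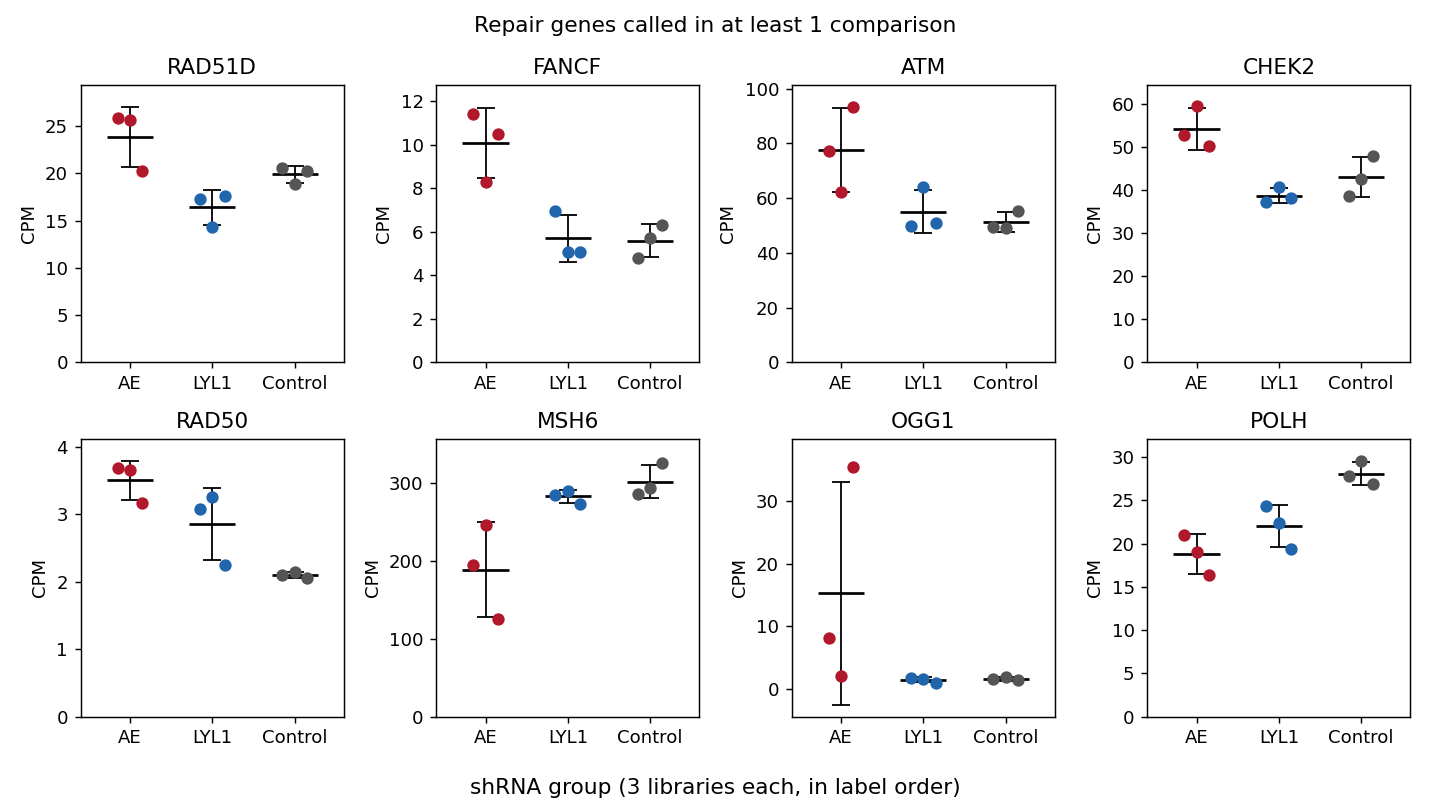
CPM of the 8 repair genes called in at least 1 of the 3 comparisons, in AE knockdown, LYL1 knockdown and control libraries; each point is a library, and the bar and whiskers are the mean and SD of 3. FANCF and CHEK2 are higher in the AE libraries than in the other 6, MSH6 is lower in them, and OGG1 spans 2.08 to 35.5 CPM in AE knockdown.

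None of the 5 end joining genes was called with AE knockdown by edgeR, while 3 had an unadjusted p below 0.05, beside 37.2% of all genes, and DESeq2 called XRCC6. Their median log2 fold change was -0.31 with AE knockdown and 0.04 with LYL1 knockdown. PRKDC, the catalytic subunit of the DNA-dependent kinase, was at 328, 375 and 159 CPM in AE knockdown, 383, 356 and 391 CPM in LYL1 knockdown and 448, 454 and 444 CPM in control libraries. Every knockdown library lay below every control, with AE replicate 3 far lowest (log2 fold change with AE knockdown -0.64, SE 0.25, adjusted p = 0.0865). It was -0.36 without AE replicate 3 (adjusted p = 0.0506) and -0.88 without AE replicate 2, where it was called (adjusted p = 0.0263). XRCC6, the Ku70 subunit that caps broken ends, was at 676, 792 and 638 CPM in AE knockdown libraries, against 884, 892 and 941 CPM in control libraries. XRCC5, the Ku80 subunit, was at 279, 262 and 220 CPM in AE knockdown libraries, against 315, 320 and 308 CPM in control libraries. Both Ku genes were lower in all AE libraries (log2 fold change -0.37, adjusted p = 0.0781, and -0.31, adjusted p = 0.114), and their LYL1 libraries overlapped the controls. LIG4, the ligase of the last step, and its partner XRCC4 had log2 fold changes of 0.00 and 0.03 with AE knockdown (SE 0.25 and 0.18).

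Of the 3 mismatch repair genes, MSH6 fell with AE knockdown (33.3% called, beside 21.8% of all genes tested). MSH6, the subunit that recognises single mispairs, was at 195, 246 and 125 CPM in AE knockdown, 285, 290 and 273 CPM in LYL1 knockdown and 286, 293 and 326 CPM in control libraries. The AE libraries were all below the other 6, with AE replicate 3 lowest. The log2 fold change was -0.67 with AE knockdown (SE 0.21, adjusted p = 0.0389), a 1.60-fold difference, and -0.09 with LYL1 knockdown (SE 0.21, adjusted p = 1). The AE call was lost without AE replicate 1 (adjusted p = 0.0668) and with library size only as the scaling (0.0607). It was also lost without any 1 of LYL1 libraries 538, 540 or 542 (0.0551, 0.057 and 0.0507). The fold change was -0.46 without AE replicate 3. FBXO11, which shares 1785 exon bases with MSH6 on the opposite strand, had a log2 fold change of -0.82 (adjusted p = 0.0078), and without strand the reads of that stretch cannot be told apart. MSH3, which recognises loops, had a log2 fold change of -0.03 (SE 0.14), and PMS2, a partner in strand incision whose pseudogenes PMS2P1 and PMS2CL were also counted, of -0.25 (SE 0.16, adjusted p = 0.263).

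Of the 9 genes of base excision and single-strand break repair, OGG1 rose with AE knockdown and none fell. The share called was 11.1%, beside 21.8% of all genes tested. OGG1 was at 8.08, 2.08 and 35.5 CPM in AE knockdown, 1.73, 1.51 and 0.947 CPM in LYL1 knockdown and 1.5, 1.81 and 1.3 CPM in control libraries. All AE libraries were above the other 6, but AE replicate 2 only just, and AE replicate 3 held most of the difference. The log2 fold change was 3.28 (SE 0.84, adjusted p = 0.0223), and 1.7 without AE replicate 3 (adjusted p = 0.0412). limma-voom did not call it (2.35, adjusted p = 0.114). OGG1 shares 2180 exon bases with CAMK1 on the opposite strand, which was at 0.107, 0.0352 and 0.336 CPM in AE knockdown libraries and at 0 in the other 6. It also shares 356 with TADA3, which was highest in AE replicate 3 as well (112, 104 and 226 CPM in AE knockdown libraries, against 116, 119 and 92.1 CPM in control libraries). The part of these neighbours in the OGG1 counts was not tested.

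UNG, which cuts uracil from DNA, was at 83.4, 193 and 83.1 CPM in AE knockdown, 133, 106 and 179 CPM in LYL1 knockdown and 190, 189 and 180 CPM in control libraries. AE replicates 1 and 3 were close to each other and below every control, AE replicate 2 was above every control, and all LYL1 libraries lay below all controls. Neither difference was called (log2 fold change -0.64 with AE knockdown, SE 0.31, adjusted p = 0.162, and -0.42 with LYL1 knockdown, SE 0.31, adjusted p = 1). Without AE replicate 2 the AE fold change was -1.16 (adjusted p = 0.00395), and without AE replicate 1 or AE replicate 3 it was -0.44 (adjusted p = 0.352 and 0.377).

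PARP1, the sensor of strand breaks, was at 460, 259 and 362 CPM in AE knockdown, 433, 415 and 383 CPM in LYL1 knockdown and 501, 495 and 541 CPM in control libraries. Every knockdown library lay below every control, and here AE replicate 2 was lowest (log2 fold change with AE knockdown -0.51, SE 0.19, adjusted p = 0.0751). DESeq2 called it, as did the fit without AE replicate 1 (adjusted p = 0.0363 and 0.0197). POLB, the gap-filling polymerase, was at 24.4, 27.1 and 32.8 CPM in AE knockdown libraries, all above the 21.7, 19.5 and 22.9 CPM of control libraries (log2 fold change 0.40, SE 0.15, adjusted p = 0.0838). XRCC1, the scaffold, and LIG3, its ligase, had log2 fold changes of -0.23 and -0.18, and APEX1 of 0.11. The low-count glycosylase genes MUTYH (0.598 to 2.18 CPM over the 9 libraries) and NEIL1 (2.38 to 4.71 CPM) had wide errors, with log2 fold changes of -0.76 (SE 0.42) and 0.43 (SE 0.26).

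Of the 5 genes of nucleotide excision repair and translesion synthesis, POLH fell with AE knockdown. POLH, the polymerase eta that copies past ultraviolet damage, was at 21.0, 19.0 and 16.4 CPM in AE knockdown, 24.3, 22.4 and 19.4 CPM in LYL1 knockdown and 27.8, 29.6 and 26.9 CPM in control libraries. Every knockdown library lay below every control, and AE and LYL1 libraries overlapped. The log2 fold change was -0.58 with AE knockdown (SE 0.15, adjusted p = 0.0224), a 1.49-fold difference, and -0.35 with LYL1 knockdown (SE 0.15, adjusted p = 1). The AE call held without any 1 AE or LYL1 library (adjusted p up to 0.0364), but was lost without any 1 control library. The helicase genes ERCC2 and ERCC3 of the repair factor TFIIH had log2 fold changes of -0.34 (SE 0.18, adjusted p = 0.204) and -0.05 (SE 0.13), and the nuclease pair ERCC1 and ERCC4 of 0.04 (SE 0.14) and 0.26 (SE 0.20).

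No repair gene was called with LYL1 knockdown: edgeR, DESeq2 and limma-voom each called 0 of the 50. In edgeR 2 had an unadjusted p below 0.05, BARD1 and POLH, where 4.82% of all genes had one. Of all genes, 0.0136% were called. Log2 fold changes ran from -0.42 (UNG) to 0.45 (RAD50), with a median of -0.03 beside 0.01 over all genes tested. In 11 of the 50 (22%) the LYL1 and control libraries did not overlap, where it was 16.6% over all genes. Of the 11, RAD50 and APEX1 were higher, beside 8.41% of all genes, and BARD1, RAD51D, XRCC2, FANCD2, CHEK1, PRKDC, UNG, PARP1 and POLH were lower, beside 8.17% of all genes. Standard errors of the 50 fold changes had a median of 0.18.

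The knockdowns were compared with each other in the same model, and RAD51D, FANCF, CHEK2 and OGG1 were higher with AE than with LYL1 knockdown. These 4 are 8.0% of the repair genes, where 20.4% of all genes differed, 10.7% higher and 9.7% lower with AE knockdown. RAD51D, of the recombinase paralogue complex, was at 25.8, 25.6 and 20.2 CPM in AE knockdown, 17.3, 14.3 and 17.6 CPM in LYL1 knockdown and 20.6, 18.9 and 20.2 CPM in control libraries. All AE libraries were above all LYL1 libraries, and the controls lay above the LYL1 libraries and overlapped the AE libraries (log2 difference 0.54, SE 0.16, adjusted p = 0.033). The log2 difference was 0.49 for CHEK2 (SE 0.13, adjusted p = 0.0285), 0.82 for FANCF (SE 0.21, adjusted p = 0.0232) and 3.40 for OGG1 (SE 0.85, adjusted p = 0.0218). For MSH6 it was -0.58 (adjusted p = 0.0677), for ATM 0.50 (adjusted p = 0.0578), and for XRCC6 -0.41 (adjusted p = 0.0592). In 11 of the 50 (22%) the AE and LYL1 libraries did not overlap, 6 with AE higher and 5 with AE lower, beside 35.5%, 18.2% and 17.2% of all genes. None of the 4 was called when only the 6 AE and LYL1 libraries were fitted, where 6.56% of all genes were called. Nor was any of the 4 called without LYL1 library 540 or 542, where 14.1% and 9.66% of all genes were called. FANCF was the only one called without LYL1 library 538, and 2 of the 4 were called without control replicate 2 or without AE replicate 1.

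The AE libraries differed among themselves in some of the repair classes. AE replicate 3 held the lowest of the 9 values for 21 of the 50 genes, and AE replicate 2 the highest for 16. The same counts were not made over all genes tested, so they are not particular to repair genes as far as is known. Over all genes tested, AE replicate 3 also stood farthest from the controls on the first principal component. Over all 50 genes, the median of log2(CPM + 0.5) minus the control mean was -0.04, 0.09 and -0.23 in AE replicates 1, 2 and 3. In LYL1 libraries 538, 540 and 542 it was -0.02, -0.07 and -0.12. For homologous recombination genes it was -0.24, 0.19 and -0.46 in the AE libraries, and for Fanconi anaemia genes -0.05, 0.28 and -0.28. AE replicate 2 thus lay above the control mean and AE replicate 3 below it in both classes. Genes of break sensing were at 0.10, 0.21 and 0.01. End joining genes were below it in all 3, at -0.24, -0.26 and -0.50, as were mismatch repair genes, at -0.08, -0.23 and -0.46. The medians of the AE libraries lay closer together for base excision genes, at -0.01, -0.07 and -0.13, and for nucleotide excision genes, at -0.05, -0.06 and 0.00. Close medians do not mean that single genes were alike: the base excision gene OGG1 had the largest coefficient of variation of the 50 genes over the AE libraries (117%). A list of 42 replication genes had the same order of the AE libraries as the recombination and Fanconi genes, at -0.35, -0.06 and -0.88, and was at -0.15, -0.16 and -0.16 in the LYL1 libraries; the part of replication in the repair values was not tested. RUNX1T1 was lowest in AE replicate 3 and highest, among the AE libraries, in AE replicate 2. RUNX1, the other part of the fusion, was at 241, 232 and 199 CPM in AE replicates 1, 2 and 3, so it was highest in AE replicate 1. The part of knockdown depth in the repair values was not tested.

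**Figure D4:**
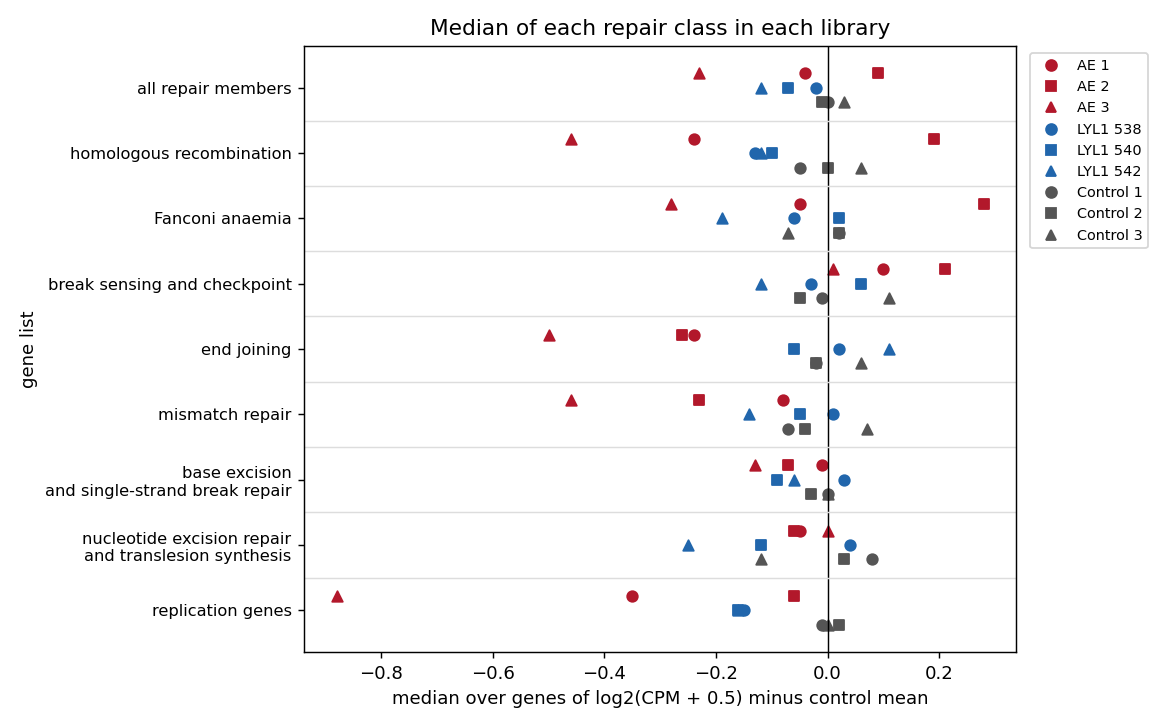
Median over the genes of each repair class, of all 50 repair genes and of 42 replication genes of log2(CPM + 0.5) minus the control mean, 1 point per library. AE replicate 3 lies farthest left for homologous recombination (-0.46), Fanconi anaemia (-0.28), end joining (-0.50) and replication genes (-0.88), while AE replicate 2 lies right of 0 for the first 2 classes.

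Other genes around these pathways were read from lists of the same kind. Of 83 further repair genes tested (86 listed), 8 rose and 8 fell with AE knockdown. These were 19.3% of the 83, beside 21.8% of all genes tested, and the median log2 fold change was -0.04. POLI, a bypass polymerase, rose to 27.2, 22.6 and 43.6 CPM in AE knockdown libraries, against 10.3, 12.0 and 11.5 CPM in control libraries (log2 fold change 1.46, SE 0.26, adjusted p = 0.00571). REV3L, the catalytic subunit of the bypass polymerase zeta, fell to 63.3, 38.9 and 46.5 CPM in AE knockdown libraries, against 89.6, 92.2 and 88.5 CPM in control libraries (log2 fold change -0.86, SE 0.17, adjusted p = 0.00851). POLH and REV3L were thus lower and POLI higher, each with no overlap between AE and control libraries, as in 45.2% of all genes tested. Other bypass genes of the 83, REV1, MAD2L2, POLK and RAD18, were not called. Their log2 fold changes were 0.08, 0.29, -0.11 and -0.18 (edgeR adjusted p = 0.671, 0.307, 0.649 and 0.453). RPA3, a subunit of the single-strand binding protein, and CETN2, of the lesion sensor of nucleotide excision repair, rose with log2 fold changes of 0.80 and 0.54 (adjusted p = 0.0091 and 0.0148).

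Of the 42 replication genes, 4 fell and none rose with AE knockdown (9.52%, beside 21.8% of all genes tested), and the median log2 fold change was -0.36. The chromatin assembly genes CHAF1B and CHAF1A, the clamp loader gene RFC1 and the polymerase alpha gene POLA1 fell, with log2 fold changes of -1.15, -0.83, -0.85 and -0.56 (adjusted p = 0.0138, 0.0322, 0.00939 and 0.0489). Of 23 p53 target genes tested (25 listed), 2 rose and 5 fell (30.4%, beside 21.8% of all genes tested). Of these p53 target genes, 3 are also repair genes of the list of 83. CDKN1A, the p21 inhibitor of the cell cycle, fell to 0.0715, 0.493 and 0 CPM in AE knockdown libraries, against 1.74, 2.45 and 1.55 CPM in control libraries (log2 fold change -3.20, SE 0.76, adjusted p = 0.0161). FAS, a death receptor, rose 3.36-fold and PLK3, a stress kinase, fell 2.34-fold (adjusted p = 0.00531 and 0.025), so the members moved in both directions. BTG2, an antiproliferative gene, rose to 0.464, 0.739 and 0.673 CPM in AE knockdown libraries, against 0.0809, 0.113 and 0.0839 CPM in control libraries (adjusted p = 0.0102). edgeR called none of the genes of these 3 lists with LYL1 knockdown, and 3 of the 83 repair, 1 of the 42 replication and 6 of the 23 p53 target genes had an unadjusted p below 0.05, beside 4.82% of all genes.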

How the data were processed

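The authors used HISAT2 2.2.0 and featureCounts 2.0.1, with fastp 0.20.1, the build hg19, DESeq2 1.26.0 and SAMtools 1.7, per the submitters' processing notes, which give no role or order. The authors deposited raw counts per gene symbol, 1 value per library, with no normalisation. Annotation, strand setting and treatment of multi-mapping reads are not given in the sources used here, so counts of overlapping genes and pseudogene families are uncertain.

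Counts were scaled with TMM and tested with edgeR 4.0.16 (R 4.3.3, limma 3.58.1) by the robust quasi-likelihood F test. All 9 libraries entered 1 group-means model after filterByExpr by group. Benjamini-Hochberg adjustment ran over 14741 genes, with a threshold of 0.05. A standard error is the log2 fold change divided by the square root of F, and fold changes use a prior count of 0.125. The fit was also run on simulated data with 1 spread per gene for all 3 groups. That run cannot show how the fit behaves with the unequal spreads of these groups. Alternatives were 3 scalings, no or a strict filter (50 counts in 3 libraries), DESeq2 1.42.0, limma-voom, fits of 6 libraries, an adjusted p below 0.01, a replicate block, leaving out each library and, added after seeing the data, the legacy quasi-likelihood test.

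The 50 genes, their classes, the context lists and the tests were chosen with earlier results of these data known. Given library by library are genes called in any comparison and the largest absolute fold change per class and knockdown; others are named with fewer values, and BRCA1, BRCA2, FANCD2, FANCI, CHEK1, RAD52, XRCC5, XRCC6, PARP1 and POLB were chosen for full values after these were seen. From each context list up to 4 genes with the smallest adjusted p are named. Within each group the libraries differed by more than counting noise, so none was counted as a duplicate. Exon overlaps are from GENCODE 29 and promoters from RefSeq (both GRCh38), not the files' build.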

Additional observations from a re-analysis of the deposited data

How the results depend on the processing

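With AE knockdown 6 repair genes were called, and 0 at an adjusted p below 0.01. Leaving out 1 library gave 0 to 11 calls: 0 without any 1 control (6.31% to 7.2% of all genes) and 11 without AE replicate 2 (28.4% of all genes). With LYL1 knockdown 0 were called in every setting run. Between the knockdowns 4 were called, 0 at an adjusted p below 0.01, 2 with library size only, 1 with no low-count filter, 8 with DESeq2, 0 in the fit of only the 6 libraries compared, and 0 to 6 on leaving out 1 library. Of all genes, 20.4% were called in the main fit, 19.2% with library size only, 8.47% with no low-count filter and 25.5% with DESeq2. It was 6.56% in the fit of only the 6 libraries compared and 9.66% to 26.7% on leaving out 1 library. The spread was estimated over all groups of a fit together. It was 7.55% between the control, 20.9% between the LYL1 and 31.4% between the AE libraries (common biological coefficient of variation). Fits that left out 1 library had equal residual degrees of freedom, and fits of only 6 libraries had fewer. The part of either in these differences was not tested. No call of a named gene changed sign in the settings run. OGG1 lost its call with no low-count filter and with limma-voom, RAD50 with library size only and with no low-count filter, and MSH6 with library size only and in the fit of only the 6 libraries compared (adjusted p = 0.0607 and 0.0808).

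The labels number the AE and control libraries 1 to 3, but libraries with the same number did not deviate together (correlation of deviations 0.0416, -0.0135 and 0.00685). The replicate block gave 0 repair genes called with AE knockdown, and 11.4% of all genes.

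With 3 libraries a group, standard errors of the 50 log2 fold changes had a median of 0.18, which limits what small differences can be called. MUTYH, OGG1, RAD50 and NEIL1 were below 5 CPM in the controls.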
